A study of Mus musculus with 21 samples.

Results

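Cerebellins, neurexins and neuroligins are 3 families of proteins that build and hold synapses. This report follows the 8 members of these families chosen by symbol, Cbln1, Cbln2, Cbln4, Nrxn2, Nrxn3, Nlgn1, Nlgn2 and Nlgn3, among the 35266 genes of the deposited count table. All 8 passed the filter on low counts, which left 16513 genes for testing. They were picked by name, with earlier results of these data known.

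Fluorescent neurons of the arcuate nucleus were picked manually from male C57BL/6J mice, 46 to 56 days after birth. AGRP neurons, which drive feeding, carried hrGFP under control of Npy (NPY-hrGFP mice). POMC neurons, which restrain feeding, carried a fluorescent protein under control of Pomc (labelled Pomc-GFP, with the reporter named topazFP in the study's methods). Mice were either fed ad libitum or given only water for 24 hr (food deprived, FD), and each mouse gave 1 library, so that the groups held 5 AGRP fed, 6 AGRP FD, 5 POMC fed and 5 POMC FD libraries.

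Each library held 44 to 214 sorted cells, amplified before sequencing, and 9822298 to 37663979 reads counted in genes. A floor of 3 counts, taken here as the limit of detection, corresponded to 0.0797 to 0.305 CPM (counts scaled to the library's total). The labels matched the identity genes: Agrp and Npy summed to 12064 to 68921 TPM (the authors' level per exon length, scaled to the library) in AGRP libraries and to 5.45 to 226 in POMC libraries, and Pomc and Cartpt to 8809 to 37160 in POMC libraries and 114 to 227 in AGRP libraries. The summed TPM of 4 astrocyte markers reached at most 14.1 in any library, that of 4 microglial markers 11.5 and that of 4 endothelial markers 5.78, whereas 4 oligodendrocyte markers gave 16.4 to 57.5, mostly Mbp. Of 8 markers of other arcuate and neighbouring neurons, Sst gave 593 to 2294 TPM in AGRP fed, 440.1 to 2334 in AGRP FD, and 0.587 to 213 in POMC libraries. The AGRP fed and FD ranges of Sst overlapped. The other markers of that list were low in AGRP libraries: Th reached at most 29.8 TPM, Ghrh 10.6, Slc6a3 7.48, Nr5a1 1.41 and Tac2 0.408, and Kiss1 and Fezf1 were at 0. In POMC libraries they reached at most 20.7 TPM (Tac2). Which cells held the Sst transcripts, and their part in the results, was not tested.

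Neurexins are transmembrane proteins that sit mostly on the presynaptic side. Neuroligins are their transmembrane partners on the postsynaptic side, with Nlgn1 known chiefly from excitatory synapses, Nlgn2 from inhibitory synapses and Nlgn3 from both. Cerebellins are secreted proteins of the C1q family that bridge neurexins to postsynaptic receptors, as Cbln1 does at synapses of parallel fibres in the cerebellum. A sorted neuron makes neurexins for its own terminals and neuroligins for the synapses it receives, so transcripts of both sides were read from the same cells.

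Positions are given on mm10, counted from 1. Cbln4 (ENSMUSG00000067578, chr2:172036233-172043466, minus strand) spans 7234 bases. Cbln1 (ENSMUSG00000031654, chr8:87468854-87472592, minus strand) spans 3739 bases, and Cbln2 is ENSMUSG00000024647. Nrxn3 (ENSMUSG00000066392, chr12:88794504-90334935, plus strand) covers 1540432 bases, against 125439 bases for Nrxn2 (ENSMUSG00000033768, chr19:6418731-6544169, plus strand). Nlgn1 (ENSMUSG00000063887, chr3:25426215-26332460, minus strand) covers 906246 bases, whereas Nlgn2 (ENSMUSG00000051790, chr11:69823122-69837784, minus strand) covers 14663 and Nlgn3 (ENSMUSG00000031302, chrX:101299168-101325963, plus strand) covers 26796. Reads were counted over exons without strand, and a read lying wholly in exons of more than 1 counted gene was set aside as ambiguous. Exons of counted antisense neighbours overlap with those of Nrxn2 (Slc22a12, Gm14964) and Nlgn1 (A830092H15Rik). Those of Gm21986, on the same strand, overlap with Nlgn3. Reads in these overlaps were thus left out of the counts. These values are uncertain to that extent. In the later annotation used for this check (GENCODE M21 basic), Cbln4, Cbln1, Cbln2 and Nlgn2 shared no exon with another gene. Nrxn3 overlaps with Gm37980, which is not a row of the count table, so reads of Gm37980 there would be counted as Nrxn3.

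The sequence before the transcription start is shown for both members whose transcripts fell in FD AGRP neurons, Cbln4 and Nlgn1. That of Nlgn2, the most abundant neuroligin, for which no fall was shown, is given as well. Each is the 250 bases before a RefSeq start (GRCm38.p6), 5′ to 3′ on the gene's own strand, at chr2:172043467-172043716, chr3:26153987-26154236 and chr11:69837785-69838034. Capitals mark CpG dinucleotides.

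Cbln4: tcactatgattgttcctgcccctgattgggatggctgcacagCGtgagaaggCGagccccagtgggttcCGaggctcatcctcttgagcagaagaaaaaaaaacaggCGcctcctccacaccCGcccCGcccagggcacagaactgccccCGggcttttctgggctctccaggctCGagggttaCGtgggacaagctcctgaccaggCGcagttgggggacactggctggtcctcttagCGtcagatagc
Nlgn1: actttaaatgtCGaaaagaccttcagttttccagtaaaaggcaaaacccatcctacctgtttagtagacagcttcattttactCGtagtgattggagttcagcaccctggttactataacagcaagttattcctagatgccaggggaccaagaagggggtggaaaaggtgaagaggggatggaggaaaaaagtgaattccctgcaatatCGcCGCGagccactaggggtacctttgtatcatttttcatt
Nlgn2: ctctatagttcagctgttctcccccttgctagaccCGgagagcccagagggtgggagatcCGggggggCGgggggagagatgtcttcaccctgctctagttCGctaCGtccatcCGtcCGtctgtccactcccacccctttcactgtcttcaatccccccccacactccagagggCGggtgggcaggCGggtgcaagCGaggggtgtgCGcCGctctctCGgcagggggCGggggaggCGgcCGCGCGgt

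Nlgn2 had 67.6% G and C with 18 CpG, Cbln4 60.8% with 11 and this Nlgn1 window 43.6% with 5, beside medians of 52.4% and 6 over 32851 promoter windows of the same length. Both strands were searched for 6 motifs, and these windows held 0 matches. The E-box, spelled CACGTG, was found in 6.02% of all windows. The cAMP response element, spelled TGACGTCA, was found in 1.55%, and the AP-1 motif, spelled TGANTCA, in 6.75%. The FOXO motif, spelled GTAAACA, was found in 3.17%, the STAT motif, spelled TTCNNNGAA, in 7.02%, and the TATA box, spelled TATAAA, in 12.4%. The absence of these letters says nothing about the factors. RefSeq windows were matched for 4 of the 8 members. The Nlgn1 window shown lies inside the gene, before an internal start. A further Nlgn1 start near the 5′ end of the gene, whose window lies in an annotated exon, and 3 Nrxn3 starts are not shown. That further Nlgn1 window (chr3:26331910-26332159) had 53.6% G and C with 9 CpG. The AP-1 motif was found once in a window of an Nrxn3 start, 231 bases before it.

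The first question was how food deprivation altered these transcripts in AGRP neurons. Cbln4 and Nlgn1 fell, and no member was called higher. With the quasi-likelihood test of edgeR, adjusted by Benjamini-Hochberg over all genes tested (q, called below 0.05), 2 of 8 members were called, beside 10.3% of all genes in this comparison. Over the 8 members the median log2 fold change was −0.46 and over all genes −0.02. In POMC neurons 0 of 8 members were called with edgeR, beside 0.375% of all genes, and 1 had an unadjusted p under 0.05 (Cbln2). DESeq2 and limma-voom also called 0. The libraries of 0 members lay apart in POMC neurons, beside 2.35% of all genes.

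Cbln4, a secreted bridge that binds neurexins and the netrin receptors DCC and neogenin, had the largest fold of the 2 members called. Its level in the 5 AGRP fed libraries was 65.8, 45.0, 56.1, 105 and 58.0 TPM. In the 6 AGRP FD libraries it was lowest at 1.98, had a median of 9.38 and was highest at 12.7 TPM. All fed AGRP libraries thus lay above all FD libraries, whereas 7.65% of all genes did not overlap between these groups. The mean went from 65.9 ± 22.9 TPM (SD, n = 5) to 7.97 ± 4.28 (SD, n = 6), and the fitted log2 fold change was −2.78 (SE 0.46, q = 0.000131), that is to 14.5% of the fed level. In bulk libraries a smaller number of neurons that express a gene and less RNA per neuron cannot be told apart. The study reported this fall from the same libraries. It also found lower Cbln4 in FD AGRP neurons by in situ hybridization, counted per cell volume.

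In POMC neurons Cbln4 libraries overlapped. The fed libraries held 6.75, 2.64, 16.1, 6.82 and 19.4 TPM and the FD libraries 10.2, 6.47, 9.99, 12.7 and 21.6 TPM, which overlap. The log2 fold change was 0.18 (SE 0.47, q = 0.934). In the POMC libraries 1 spike-in set held only FD and another only fed mice, where set and group cannot be told apart. In the set with 3 libraries of each group Cbln4 was at 6.05 to 16.7 normalized CPM when fed and 5.54 to 9.0 after deprivation. The test of the difference itself, the interaction of cell type and deprivation, gave −2.96 for Cbln4 (SE 0.65, q = 0.00503). Under spike-in scaling it was −2.03 (q = 0.583) and not called. This was the 1 member of 8 called for the interaction, beside 6.71% of all genes.

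Between the cell types Cbln4 was called in fed mice only. In fed mice all AGRP libraries lay above all POMC libraries, with a log2 difference of 2.53 (SE 0.49, q = 0.000642). In FD mice the same difference was −0.42 (SE 0.45, q = 0.577) and the libraries overlapped. Under spike-in scaling the fed difference was 3.01 (q = 0.0565) and the FD difference 0.97 (q = 0.427), neither called. The comparison of fed cell types shares its AGRP fed libraries with the comparison of AGRP neurons by feeding, so these are not independent observations.

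The fall of Cbln4 was present within each age cohort and spike-in set that held both AGRP groups. In mice of 46 to 47 days the 2 fed libraries had 48.4 and 85.2 normalized CPM and the 3 FD libraries 3.68 to 9.60. In mice of 54 to 56 days the 2 fed libraries had 40.0 and 52.0 and the 3 FD libraries 1.92 to 14.4. With each library left out in turn, the log2 fold change stayed between −3.05 and −2.56. Scaled to spike-in RNA per sorted cell, under which 97 of 16513 genes were called, it was −2.92 (q = 0.0811) and the call was lost. Spike-in volumes differed between libraries.

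**Figure D1:**
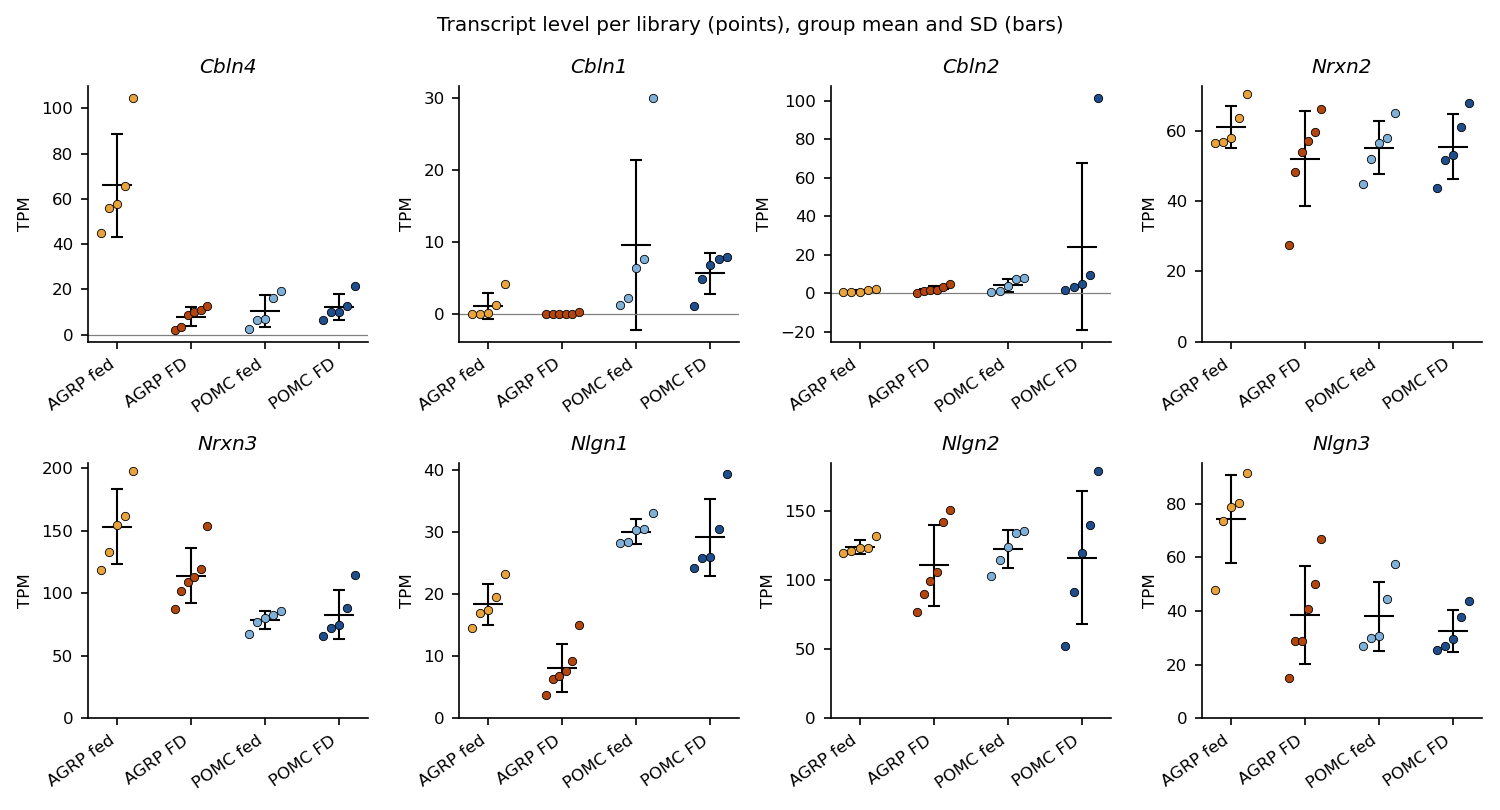
Level of each member in TPM (y axis) in the 4 groups (x axis), with 1 point per library in order of value, the group mean (wide line) and SD (error bar). Cbln4 stands at 45.0 to 105 TPM in AGRP fed and at most 21.6 TPM in any other library, and Cbln2 reaches 102 TPM in a single POMC FD library.

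Nlgn1, a neuroligin of excitatory synapses, fell in FD AGRP neurons by 0.96 on the log2 scale. Its levels in AGRP fed were 17.0, 17.6, 19.6, 14.5 and 23.2 TPM. In AGRP FD the lowest was 3.86, the median 7.25 and the highest 15.1 TPM. Only that highest FD library, replicate 1, reached into the fed range, where it passed replicate 4 (14.5 TPM). The log2 fold change had an SE of 0.22 and q = 0.00446, and stayed between −1.16 and −0.82 with each library left out. Under spike-in scaling per cell it was −0.83 (q = 1) and no longer called.

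In POMC neurons Nlgn1 held 28.2, 30.4, 30.6, 28.5 and 33.1 TPM when fed and 26.1, 39.5, 30.5, 25.9 and 24.2 TPM after deprivation. The log2 fold change was −0.17 (SE 0.23, q = 0.847). The interaction was −0.79 (SE 0.32, q = 0.149), so a difference in response between the cell types was not shown. Without AGRP FD replicate 1 it was −0.99 (q = 0.0337). Within cohorts the AGRP FD libraries of 54 to 56 days (25.2 to 32.0 normalized CPM) lay below the fed ones (54.9 and 63.6), and those of 46 to 47 days (16.7 to 53.4) overlapped with the fed ones (48.2 and 79.2).

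Nlgn3, which works at both kinds of synapse, was close to the threshold. AGRP fed libraries held 73.4, 91.6, 80.3, 78.8 and 47.7 TPM, and AGRP FD libraries 15.2 at the lowest, 34.9 at the median and 66.7 at the highest. The groups overlapped through the lowest fed library, replicate 5, and the 2 highest FD libraries, replicates 1 and 6. The log2 fold change was −0.74 (SE 0.25, q = 0.0563). It was called under 7 of 11 alternative settings, limma-voom among them (−0.85, q = 0.0132), and without AGRP fed replicate 5 (q = 0.0319) or AGRP FD replicate 6 (q = 0.0120). In POMC neurons its log2 fold change was −0.34 (SE 0.26, q = 0.664).

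Nlgn2, the neuroligin of inhibitory synapses, gave no call. AGRP fed libraries were close together at 132, 120, 123, 121 and 124 TPM, while AGRP FD libraries ran from 76.7 through a median of 102 to 151 TPM. The log2 fold changes were 0.07 (SE 0.20) in AGRP and −0.19 (SE 0.21) in POMC neurons, where the FD libraries were the most spread, from 52.4 to 179 TPM. The sign in AGRP neurons turned to −0.20 on the log2(TPM + 1) scale, on which the median gene itself moved by −0.28, against −0.02 in the count model.

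With Nlgn1 and Nlgn2 read from the same libraries, their ratio in TPM is free of the library's scale. Nlgn2 exceeded Nlgn1 by 6.91 ± 1.20 times in AGRP fed (SD, n = 5, 5.32 to 8.36) and by 14.7 ± 3.42 times in AGRP FD (SD, n = 6, 9.38 to 19.9), and no library of one group reached the other. In POMC neurons the ratio was 4.05 ± 0.276 when fed and 3.99 ± 1.49 after deprivation (SD, n = 5 each). Nlgn1 made up 8.57% ± 2.02 of the summed neuroligin TPM in AGRP fed, 5.06% ± 1.18 in AGRP FD and 16.0% ± 1.52 in POMC fed (SD). Nlgn2 supplied 57.4% ± 4.26 and 71.3% ± 7.25 in AGRP fed and FD, and Nlgn3 34.0% ± 5.87 and 23.6% ± 7.17. These ratios and shares were not tested. Nlgn1 was itself called lower in the same AGRP libraries, so its ratio is not a separate observation. How many gene pairs lie apart in this way was not counted.

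**Figure D2:**
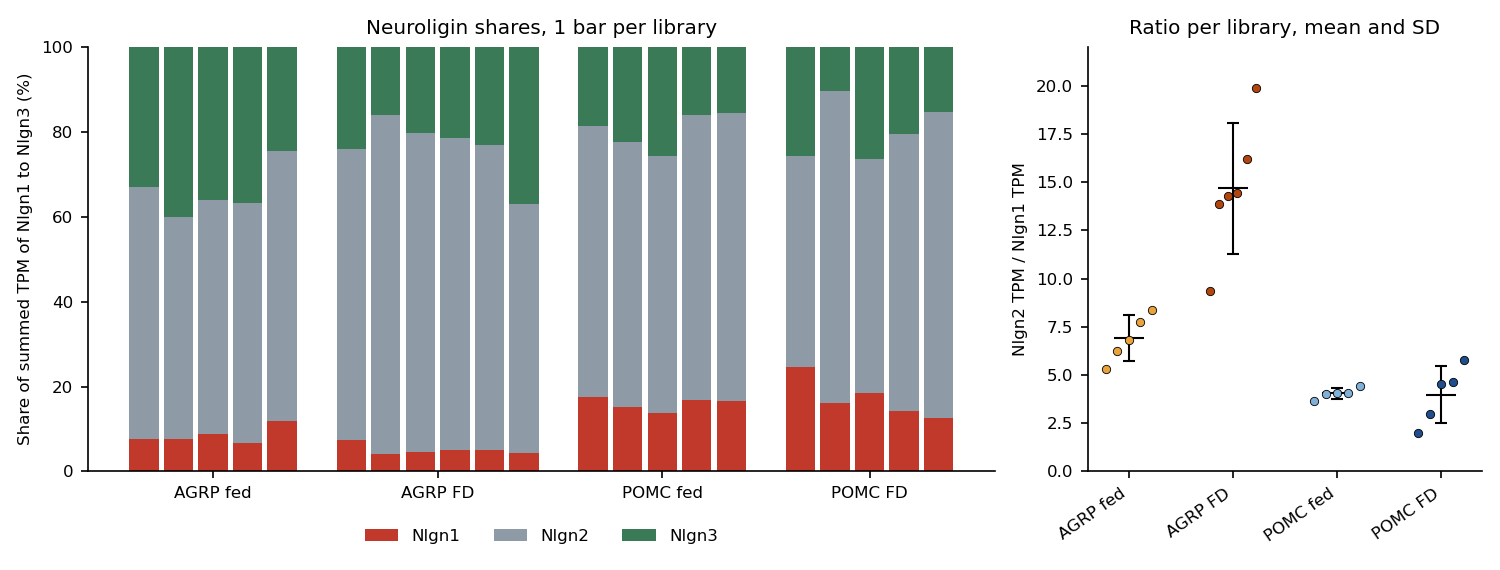
Left, share of the summed TPM of Nlgn1, Nlgn2 and Nlgn3 (y axis, %) with 1 bar per library in the 4 groups; right, ratio of Nlgn2 to Nlgn1 TPM per library (points) with group mean and SD. The ratio is 9.38 to 19.9 in AGRP FD, above the 5.32 to 8.36 of AGRP fed, and at most 5.79 in POMC libraries.

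Neither neurexin was called for feeding state. Nrxn3 held 119, 133, 198, 162 and 154 TPM in AGRP fed, and 87.7 at the lowest, 111 at the median and 154 at the highest in AGRP FD, so the groups overlapped. Its log2 fold changes were −0.17 (SE 0.16, q = 0.610) in AGRP and −0.04 (SE 0.17, q = 0.968) in POMC neurons. Nrxn2 stood at 61.0 ± 6.07 TPM in AGRP fed (SD, n = 5) and 52.1 ± 13.4 in AGRP FD (SD, n = 6), with replicate 5 of the latter lowest at 27.4. The log2 fold changes of Nrxn2 were 0.02 (SE 0.19, q = 0.973) and −0.13 (SE 0.20, q = 0.866), and its sign in AGRP neurons turned with the setting. A p that misses the threshold does not show that these levels were equal.

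Cbln1 and Cbln2, the other bridges, were scarce and uneven. Counts of Cbln1 in AGRP fed were 1, 2, 45, 0 and 16, and 5 of 6 AGRP FD libraries had at most 1 count, the exception being replicate 4 with 12. The log2 fold change of −3.07 (SE 1.22, q = 0.115) was not called and, being fitted on counts near the floor, does not measure a fold. It was called by DESeq2 (q = 0.0493) and without AGRP FD replicate 4 (q = 0.0208). In POMC neurons Cbln1 was 30.0, 7.73, 2.3, 1.26 and 6.44 TPM when fed and 7.99, 7.70, 4.85, 1.14 and 6.84 TPM after deprivation (log2 fold change −0.98, SE 1.16, q = 0.816).

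Cbln2 held 7.38, 1.16, 3.48, 0.60 and 8.0 TPM in POMC fed. In POMC FD it held 102, 4.92, 3.18, 1.38 and 9.28 TPM, so a single library, replicate 1 with 44 sorted cells, stood far above the rest. The log2 fold change of 2.43 (SE 0.98, q = 0.280) became 0.05 (q = 0.993) without it. AGRP libraries held at most 4.94 TPM, and the log2 fold change there was 1.22 (SE 0.93, q = 0.494).

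The second question was how AGRP and POMC neurons differed. Each cell type came from its own mouse line, so line and cell type cannot be told apart. Mice were 46 to 55 days old in AGRP fed, 47 to 55 in AGRP FD, 51 to 56 in POMC fed and 54 to 56 in POMC FD. Age cohort as a block was among the alternative settings. In fed mice 3 of 8 members were called, beside 7.57% of all genes: Cbln4 and Nrxn3 were higher and Nlgn1 lower in AGRP neurons. The libraries of these 3 did not overlap, as for 8.93% of all genes. In FD mice 4 of 8 were called, beside 18.6% of all genes: Nrxn3 was higher, and Nlgn1, Cbln1 and Cbln2 were lower in AGRP neurons. Libraries of 2 of them, Nlgn1 and Cbln1, did not overlap, as for 11.4% of all genes. The median log2 difference over the members was −0.11 in fed and −0.16 in FD mice, with −0.01 and −0.004 over all genes.

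Nrxn3, a presynaptic receptor for cerebellins and neuroligins, was higher in AGRP neurons. Its POMC fed libraries held 67.1, 80.2, 82.4, 77.2 and 85.9 TPM, all below the AGRP fed minimum of 119 TPM. The log2 difference was 0.78 (SE 0.17, q = 0.00273). In FD mice the POMC libraries held 65.6, 74.4, 72.6, 88.2 and 115 TPM and overlapped with AGRP FD, with a log2 difference of 0.65 (SE 0.17, q = 0.00493). The FD call was lost on the log2(TPM + 1) scale (0.46, q = 0.0556), and both were lost under spike-in scaling, where the differences were 0.82 (SE 0.79, q = 1) in fed and 2.02 (SE 0.79, q = 0.0969) in FD mice.

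Nrxn2 was not called between the cell types, with log2 differences of −0.06 (SE 0.20, q = 0.931) in fed and 0.10 (SE 0.19, q = 0.788) in FD mice. Levels per length gave an Nrxn3 to Nrxn2 ratio of 2.56 ± 0.689 in AGRP fed (SD, n = 5), 2.29 ± 0.540 in AGRP FD (SD, n = 6), 1.45 ± 0.261 in POMC fed and 1.50 ± 0.194 in POMC FD (SD, n = 5 each). The AGRP and POMC ranges did not meet: the lowest AGRP libraries had ratios of 1.87 when fed and 1.79 after deprivation, and the highest POMC libraries 1.72 and 1.69. Nrxn3 was itself called higher in the same libraries, so this ratio is not a separate observation and was not tested. The number of gene pairs whose ratios lie apart between the cell types was not counted.

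Nlgn1 ran the other way. It was lower in AGRP than in POMC neurons by 0.90 on the log2 scale in fed mice (SE 0.23, q = 0.0124), with no AGRP fed library above 23.2 TPM and no POMC fed library below 28.2 TPM. In FD mice the log2 difference was −1.69 (SE 0.22, q = 1.37e-06), and the libraries again lay apart. The fed difference was not called on the log2(TPM + 1) scale (−0.70, q = 0.146), and neither difference was called under spike-in scaling per cell (−0.82 and −0.40).

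Nlgn3 had a log2 difference of 0.79 between fed AGRP and POMC neurons (SE 0.27, q = 0.0684), which 6 of 11 alternative settings called, limma-voom among them (0.77, q = 0.0384). It was also called without AGRP fed replicate 5 (q = 0.0422), AGRP FD replicate 2 (q = 0.0333), AGRP FD replicate 6 (q = 0.0487) or POMC fed replicate 3 (q = 0.0362). POMC fed libraries held 30.0, 44.4, 57.6, 27.1 and 30.9 TPM, and only replicate 3 reached the AGRP fed range. Nlgn2 had log2 differences of −0.16 (SE 0.21) in fed and 0.10 (SE 0.20) in FD mice, neither called.

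Cbln1 was near the floor in AGRP FD and present in all POMC FD libraries, where its counts were 106, 111, 80, 8 and 66. The fitted log2 difference of −5.48 (SE 1.32, q = 0.00298) was called under all 11 alternative settings and with any library left out. Its size depends on how counts near 0 are treated and is no measure of the fold. In fed mice the difference was −3.39 (SE 1.27, q = 0.110), called by limma-voom (q = 0.0183), DESeq2 and 2 further settings, and without AGRP fed replicate 3 (q = 0.0370). The Cbln2 difference in FD mice, −3.39 (SE 0.95, q = 0.0105), rested on POMC FD replicate 1, without which it was −1.02 (q = 0.524). With that library kept, it was called under 6 of 11 alternative settings and lost with limma-voom (−2.43, q = 0.0933), on the log2(TPM + 1) scale (−1.78, q = 0.0834), with the replicate block (−2.40, q = 0.157), with sorted cells as a covariate (−2.78, q = 0.114) and under spike-in scaling (−2.92, q = 0.0987).

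**Figure D3:**
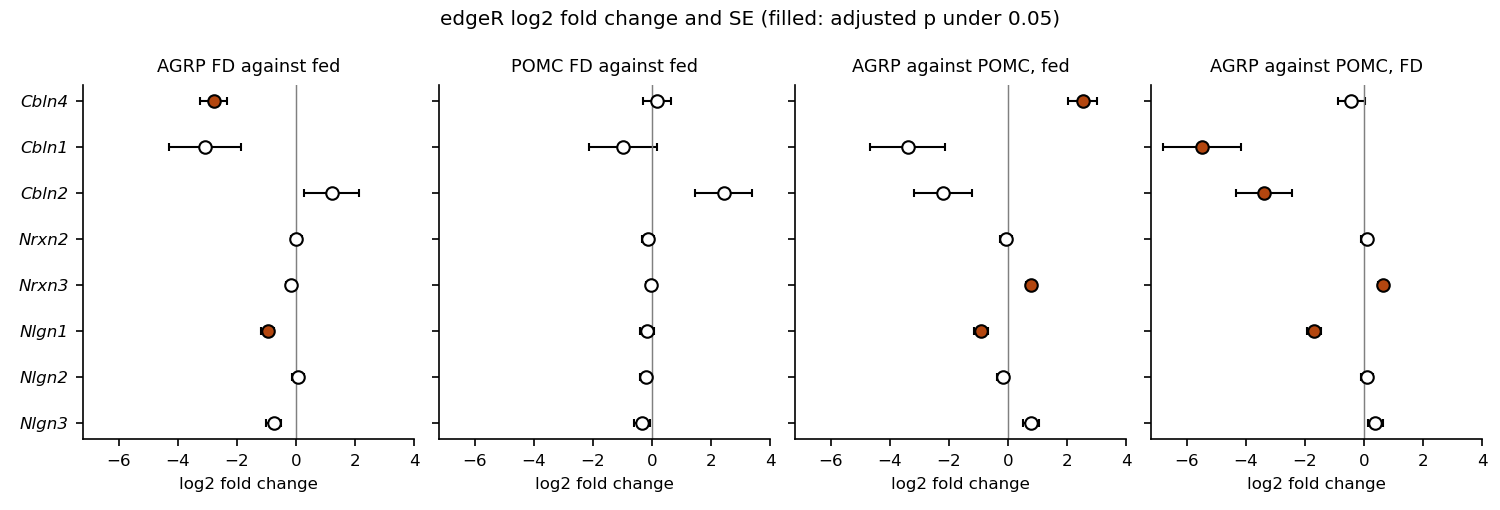
Fitted log2 fold change (x axis) with its SE (error bar) of the 8 members (y axis) in 4 comparisons, filled where q is below 0.05. Cbln4 lies at −2.78 in AGRP FD against fed and at 0.18 in POMC neurons, Nrxn3 and Nlgn1 keep opposite sides of 0 in both comparisons of the cell types, and the wide bars belong to Cbln1 and Cbln2.

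Levels per length also ordered the members within each group. In AGRP fed the means ran from Nrxn3 (153 TPM) through Nlgn2 (124), Nlgn3 (74.4), Cbln4 (65.9), Nrxn2 (61.0) and Nlgn1 (18.4) to Cbln1 (1.14) and Cbln2 (1.02). Nlgn3 exceeded Cbln4, and Cbln4 exceeded Nrxn2, in only 3 of 5 libraries each, so these neighbours did not differ beyond their spread. Cbln1 exceeded Cbln2 in only 1 of 5 libraries, and by median Cbln2 (0.639 TPM) stood above Cbln1 (0.154). In AGRP FD Cbln4 (7.97 TPM) stood beside Nlgn1 (8.19), which exceeded it in 3 of 6 libraries. Nrxn3 (114 TPM) likewise exceeded Nlgn2 (111) in 3 of 6 AGRP FD libraries. In both POMC groups Nlgn2 came first (122 TPM fed, 116 FD), ahead of Nrxn3 (78.6 and 83.1), in 5 of 5 fed and 4 of 5 FD libraries.

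Among the cerebellins, Cbln4 made up 96.4% ± 3.03 of the summed TPM of Cbln1, Cbln2 and Cbln4 in AGRP fed (SD, n = 5) and 79.2% ± 15.9 in AGRP FD (SD, n = 6). In POMC fed it made up 49.5% ± 29.0 and Cbln1 35.8% ± 29.1 (SD, n = 5). The summed level was 68.1 ± 22 TPM in AGRP fed, 10.1 ± 5.37 in AGRP FD and 24.0 ± 15.0 in POMC fed (SD). In POMC FD it was 42.0 ± 44.4 TPM (SD, n = 5), with Cbln4 at 47.7% ± 28.1 and Cbln2 at 32.4% ± 30.1, and replicate 1, with its 102 TPM of Cbln2, was the highest library at 119.8 TPM.

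The genes around these families were read from 8 lists with 92 genes in the count table, of which 87 passed the filter. In AGRP neurons 4 of 87 rose and 12 fell with deprivation, beside 969 and 731 of all 16513 genes. On the log2(TPM + 1) scale 523 of the 1943 genes called in this comparison were higher, against 969 of 1700. In POMC neurons 0 of 87 were called with edgeR, beside 0.375% of all genes, 14 had an unadjusted p under 0.05, and limma-voom called 0. Between the cell types 11 were higher and 16 lower in AGRP neurons when fed, beside 550 and 700 of all genes (7.57% in all). After deprivation 12 were higher and 31 lower, beside 1533 and 1531 of all genes (18.6% in all).

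Of 15 other neurexin ligands tested, 2 rose and 2 fell in FD AGRP neurons, beside 10.3% of all genes called. With limma-voom 7 were called, beside 2115 of all 16513 genes. The leucine-rich postsynaptic ligands Lrrtm2 and Lrrtm4 fell, Lrrtm2 from 86.1 ± 10.4 to 37.6 ± 15.7 TPM (log2 fold change −0.97, SE 0.18, q = 0.000440) and Lrrtm4 from 28.6 ± 9.15 to 9.11 ± 4.78 TPM (−1.34, SE 0.33, q = 0.00668; SD, n = 5 and 6). Clstn3, a postsynaptic cadherin of the calsyntenin family, rose by 0.69 (SE 0.16, q = 0.00524) in the count model, from 178 ± 27.8 to 243 ± 55.0 TPM, and was not called on the log2(TPM + 1) scale (0.43, q = 0.0854). Between fed cell types Lrrtm3 was higher in AGRP neurons (2.01, q = 5.16e-05), and Lrrtm2 (−1.21, q = 3.79e-05) and the latrophilin Lphn3 (−1.60, q = 5.75e-07) were lower.

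Receptors that cerebellins reach besides neurexins include the glutamate receptor family member Grid1 and the netrin receptors Dcc and Neo1 (neogenin). In FD AGRP neurons 0 of these 3 rose and 1 fell, beside 10.3% of all genes called. Neo1 fell from 207 ± 29.4 to 93.1 ± 16.5 TPM (SD, n = 5 and 6), with a log2 fold change of −0.91 (SE 0.14, q = 4.68e-05). Its interaction with cell type was −0.97 (SE 0.20, q = 0.00295), and 0.27 (q = 0.914) under spike-in scaling. Cbln4, a ligand of neogenin, also fell in FD AGRP neurons. In fed mice Dcc was lower in AGRP than in POMC neurons (3.67 ± 2.13 against 24.9 ± 6.46 TPM, SD, n = 5 each; −2.95, q = 0.000274), and Grid1 (1.00, q = 0.00180) and Neo1 (0.85, q = 0.000156) were higher.

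Of 17 neuroligin partners and postsynaptic scaffolds, 0 rose and 4 fell in FD AGRP neurons, beside 10.3% of all genes called. Mdga1, a membrane-anchored protein that binds neuroligins and blocks their contact with neurexins, went from 9.60 ± 1.71 to 0.890 ± 0.955 TPM (SD, n = 5 and 6; log2 fold change −3.21, SE 0.91, q = 0.0211), with 2 of 6 FD libraries at or under 3 counts. The excitatory scaffolds Shank2 (−0.78, SE 0.19, q = 0.00569) and Dlg2 (−0.60, SE 0.17, q = 0.0216) also fell. Dlg2 was not called without AGRP fed replicate 4 or AGRP FD replicate 4 (q up to 0.0647), nor with the replicate block (−0.56, q = 0.0664). Mdga2 was lower in AGRP than in POMC neurons in fed (−1.79, q = 7.33e-08) and FD mice (−1.78, q = 1.49e-08).

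Inside the terminal neurexins bind adaptors. Of 8 such partners 0 rose and 1 fell in FD AGRP neurons, beside 10.3% of all genes called. With limma-voom 2 were called, beside 2115 of all 16513 genes. The gene called by edgeR was Lin7a, which fell from 104 ± 9.94 to 35.8 ± 10.2 TPM in AGRP neurons (SD, n = 5 and 6). Its log2 fold change was −1.30 (SE 0.18, q = 1.18e-05) and its interaction −1.40 (SE 0.26, q = 0.000818). Under spike-in scaling the interaction was −0.36 (q = 0.884) and not called. Cask, the kinase-like adaptor of the neurexin tail, was lower in AGRP than in POMC neurons, 23.3 ± 3.09 against 111 ± 33.3 TPM in fed mice (SD, n = 5 each; −2.41, SE 0.20, q = 4.01e-10). Of 6 sheddases and gamma-secretase subunits, 0 were called in FD AGRP neurons with edgeR, beside 10.3% of all genes. Of these 6, 1 had an unadjusted p under 0.05 and limma-voom called 0.

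Of 9 RNA-binding proteins that set neurexin splicing, 0 rose and 2 fell in FD AGRP neurons, beside 10.3% of all genes called. These were Rbfox1 (−1.09, SE 0.26, q = 0.00529) and Khdrbs3 (−0.93, SE 0.27, q = 0.0243). The Khdrbs3 call was lost without AGRP fed replicate 1 or 5 or AGRP FD replicate 4 or 6 (q up to 0.0720). It was also lost with limma-voom (−1.03, q = 0.0792) and with only the groups compared (−0.93, q = 0.112). In fed mice Nova1 (−1.83, q = 5.51e-08), Khdrbs3 (−1.74, q = 8.06e-05) and Rbfox3 (−1.43, q = 0.000593) were lower in AGRP than in POMC neurons. The files hold counts per gene, so neurexin splice forms were not measured.

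Of 28 organizers that do not act through neurexins, 2 rose and 2 fell in FD AGRP neurons, beside 10.3% of all genes called. Ntng1, the presynaptic netrin-G1, rose from 4.77 ± 1.80 to 54.4 ± 7.99 TPM (SD, n = 5 and 6; log2 fold change 3.76, SE 0.26, q = 8.53e-11). Lrrc4c, which encodes its postsynaptic partner NGL-1, fell from 69.6 ± 14.9 to 20.5 ± 6.90 TPM (SD; −1.53, SE 0.22, q = 1.81e-05). The interactions were 3.65 (q = 3.03e-08) and −2.02 (q = 0.000115). Under spike-in scaling that of Lrrc4c was −0.78 (q = 0.756) and not called. Slitrk5 had a log2 fold change of 1.31 (SE 0.37, q = 0.0206) in AGRP neurons, not called without AGRP fed replicate 4 or AGRP FD replicate 2 or 6 (q up to 0.0713). It was called under 6 of 11 alternative settings and lost with limma-voom (0.96, q = 0.297), on the log2(TPM + 1) scale (0.69, q = 0.269), with the replicate block (q = 0.104), with only the groups compared (q = 0.0728) and under spike-in scaling. The listed genes lost their calls in AGRP neurons under spike-in scaling, with the exceptions of Mdga1 and Ntng1. The log2 fold changes there were −1.11 for Lrrtm2, −1.83 for Lrrtm4, 0.79 for Clstn3, −1.35 for Lin7a and −1.36 for Lrrc4c. Of the differences between cell types given above for listed genes, that of Dcc alone stayed called under this scaling. Of their interactions, that of Ntng1 alone stayed called.

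**Figure D4:**
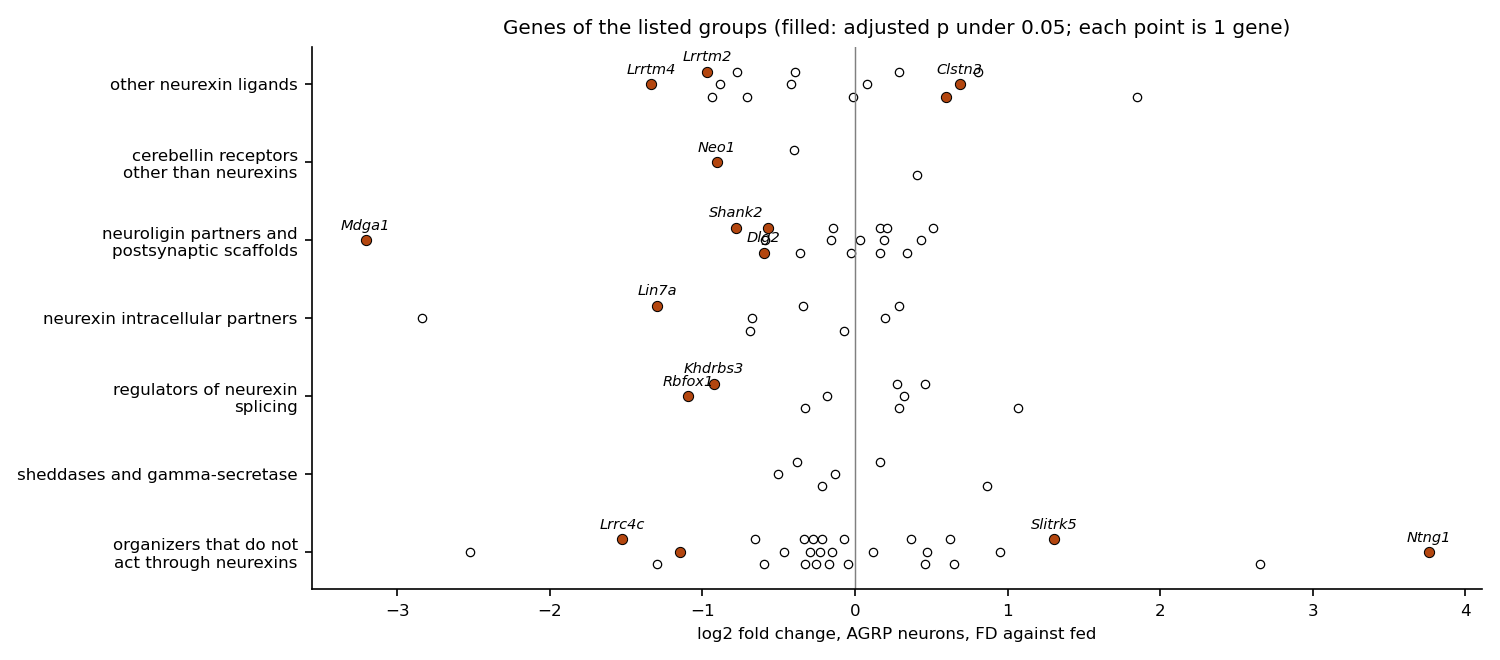
Log2 fold change in AGRP neurons, FD against fed (x axis), of the tested genes of 7 lists (y axis), with 1 point per gene, filled where q is below 0.05. Ntng1 lies farthest to the right at 3.76 and Mdga1 farthest to the left at −3.21, and Neo1 is the 1 called cerebellin receptor, at −0.91.

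The genes whose log2 normalized CPM followed a member most closely over the 21 libraries were taken from 8200 genes. Cbln4 was nearest to Shisa9 (Pearson r = 0.843), Gnal (0.842) and Kndc1 (0.826). Nlgn1 was nearest to Ebpl (0.943), Cntn6 (0.941) and Gnaz (0.936), and Nrxn3 to 4732456N10Rik (0.887), Ankrd45 (0.874) and Tmem176b (0.857). For Nlgn3 the nearest were Zbtb6 (0.763), Shisa9 (0.743) and Prkar2b (0.738), and for Nlgn2 Me2 (0.830), Rapgefl1 (0.777) and Tbc1d17 (0.754). Nrxn2 was nearest to Cbll1 (0.779), Gm23935 (0.776) and Fam131a (0.727), Cbln1 to Gpx1 (0.874), Sox2 (0.867) and Brs3 (0.861), and Cbln2 to Tmem43 (0.802), Spata7 (0.800) and Trappc5 (0.794). The libraries share the 4 groups, their depth and their amplification, so these values describe likeness over these libraries. Among the members themselves Cbln1 and Nlgn1 had the highest r (0.818), and Nrxn3 and Nlgn1 the lowest (−0.610).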

How the data were processed

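The authors sequenced RNA of sorted neurons after amplification with the Ovation RNA-Seq System V2, without molecular identifiers. They removed adaptors with cutadapt 1.7.1 and ribosomal, mitochondrial and low-complexity reads with Bowtie2 2.1.0, aligned to mm10 with STAR 2.4.0i and counted unique reads per gene with HTSeq 0.6.1p1 without strand. The deposited counts were raw, with 92 spike-in and 5 summary entries left out here (no-feature reads made up 24.2% to 52.1% of gene, spike-in, no-feature and ambiguous counts together). The deposited TPM values were made by the authors from these counts and summed exon lengths. Groups followed the labels.

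Counts were tested with edgeR 4.0.16 in R 4.3.3 (quasi-likelihood, TMM, CPM over 1 in at least 3 libraries, 4 groups in 1 model, two-sided), after tests on simulated data. The study's methods used limma-voom, an alternative here. The other alternatives were DESeq2 1.42.0, RLE factors, limma-trend on log2(TPM + 1) (limma 3.58.1), no filter, only the groups compared, blocks (replicate number, age cohort, spike-in set), sorted cells as covariate, spike-in scaling and each library left out. Each library was 1 mouse. The smallest chi-square per degree of freedom between replicates was 39.3, so none were duplicates. Depth limits precision to counting error only where counts are few.

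Members and lists were chosen with earlier results of these data known. Named genes were the 8 members, at most 3 called genes per list and comparison with mean CPM over 20 in a group and the largest change, and the 3 genes nearest to each member. 2 genes of the lists are not reported here. Of the deposited gene starts, 74.4% lay 1 base below GENCODE M21 and 1.07% equalled it, so starts were read as counted from 0.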

Additional observations from a re-analysis of the deposited data

Results flagged for a closer look

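Dixon's criterion was applied to 32 combinations of a member and a group, and 5 held a library that stood apart from the rest of its group. Chance alone marks about 1 in 20 where values follow a normal distribution. The criterion was applied to CPM without logarithm, and Cbln1 was at 0 in 4 of 6 AGRP FD libraries, so that rate need not hold here. All 5 libraries were the highest of their group. Cbln2 in POMC FD replicate 1 had 89.0 normalized CPM against 8.05 in the next highest library, and this library carries the Cbln2 difference between FD AGRP and POMC neurons. Cbln1 in POMC fed replicate 1 had 26.1 against 6.37. Cbln1 in AGRP FD replicate 4 had 0.365 against 0.0745, that is 12 counts against 1. Cbln4 in AGRP fed replicate 4 had 85.2 against 52.0, and the fall in FD AGRP neurons was called without it. Nrxn2 in AGRP fed replicate 2 had 199 against 160.

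The change of Cbln4 with deprivation differed between the cell types, by −2.96 on the log2 scale (edgeR interaction, SE 0.65, q = 0.00503), with −2.78 in AGRP and 0.18 in POMC neurons. Under spike-in scaling the difference was −2.03 (q = 0.583).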

How the results depend on the processing

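Calls of Cbln4 and Nlgn1 in FD AGRP neurons held under 10 of 11 settings and with each of 21 libraries left out. The number of members called moved by over 1.5 times from 2 to 4 (DESeq2) or 0 (spike-in scaling) in FD against fed AGRP neurons, where 6 other settings gave 3, from 3 to 5 (limma-voom), 5 (DESeq2) or 0 (spike-in scaling) between fed cell types, where 5 other settings gave 4, from 4 to 2 (log2(TPM + 1)) or 1 (spike-in scaling) between FD cell types, where 3 other settings gave 3, and from 1 to 0 (spike-in scaling) for the interaction, which ranged from 1 to 2 over left-out libraries, with 2 without AGRP FD replicate 1. Spike-in scaling moved the median gene by −1.11 in POMC FD against fed, 1.10 between FD cell types and 1.04 in the interaction, and log2(TPM + 1) by −0.28, 0.07, 0.20, −0.15 and −0.35 in the order of the 5 comparisons. The cause of these changes was not tested.

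Signs turned only for changes that were not called in the main analysis, and for 5 listed genes under spike-in scaling. FD against fed AGRP neurons: Nrxn2 −0.029 (limma-voom), −0.27 (TPM), −0.067 (sorted cells) and −0.088 to 0.15 over left-out libraries, Nlgn2 −0.20 (TPM) and −0.030 to 0.14. FD against fed POMC neurons: Cbln1 0.78 (age cohort) and −1.27 to 0.25, Cbln4 −0.055 (age cohort), −0.077 (spike-in set), −0.89 (spike-in scaling) and −0.13 to 0.49, Nrxn2 0.0013 (TPM) and 0.0064 (age cohort), Nrxn3 0.057 (TPM), 0.081 (age cohort) and −0.18 to 0.032. Fed cell types: Nrxn2 0.15 (TPM), 0.019 (sorted cells) and −0.14 to 0.070, Nlgn2 0.025 (TPM). FD cell types: Cbln4 0.97 (spike-in scaling), Nrxn2 −0.12 (TPM) and −0.010 to 0.23, Nlgn2 −0.080 to 0.30. Interaction: Cbln2 −1.64 to 1.17 (the highest without POMC FD replicate 1), Nrxn2 −0.27 (TPM), Nrxn3 1.20 (spike-in scaling) and −0.22 to 0.0057, Nlgn1 0.41 and Nlgn3 0.92 (spike-in scaling), Nlgn2 −0.023 (TPM). Under spike-in scaling the listed genes Dlg1 (0.49), Apba1 (0.47), Lin7a (0.029) and Adam10 (0.20) turned between FD cell types, and Neo1 (0.27) in the interaction.

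Same-numbered libraries did not deviate together (correlations −0.104 to 0.0679), so numbers do not pair the samples. With the replicate block 3, 0, 4, 3 and 1 members were called in the 5 comparisons, with 1488 genes called in FD AGRP neurons against 1700.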
